A study of Homo sapiens with 6 samples.

Results

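Cystine import, glutathione synthesis and ferroptosis control were followed through 10 genes in MHCC97H cells, a human hepatocellular carcinoma line described as highly metastatic. The genes were SLC7A11, SLC3A2, GCLC, GCLM, GSS, GPX4, ACSL4, AIFM2, NFE2L2 and KEAP1, taken by symbol from a table of 15598 genes, and all 10 were found and passed the filter on low counts. SLC7A11 was chosen by its fall in counts between the groups compared here, so its values are given as a description without a test. The other 9 were listed for their roles, with earlier results of these data known. RNA sequencing compared 2 groups of 3 libraries, one from cells in which a short hairpin RNA knocked down HNRNPC (shHNRNPC) and one from cells given a control hairpin (shcontrol). HNRNPC encodes a nuclear RNA-binding protein that coats nascent transcripts at uridine-rich stretches. The labels give 1 cell line, tell apart 1 knockdown hairpin, and state no further treatment or time. The series describes the replicates as independent, without saying whether they were separate cultures, so p-values measure the spread between these libraries. Because RNA was taken from whole cultures, fewer expressing cells and less RNA per cell cannot be told apart.

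Cysteine limits glutathione synthesis in many cells, and cystine, its oxidised form, enters through system xc-, a light chain (SLC7A11) held at the membrane by a heavy chain (SLC3A2). Glutamate-cysteine ligase (GCLC with its modifier GCLM) and glutathione synthetase (GSS) then build glutathione, which the selenoenzyme GPX4 uses to reduce lipid peroxides. Ferroptosis is a form of cell death driven by peroxidation of polyunsaturated membrane lipids, which ACSL4 supplies and which AIFM2 opposes through reduced ubiquinone. NFE2L2 (NRF2) is a transcription factor that switches on many of these genes, and KEAP1 marks it for destruction.

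Library totals ranged from 15563077 to 18328475 counts, and 11831 genes passed the filter. The libraries are named NC_3, NC_3_2 and NC_3_3 for shcontrol and SI_3, SI_3_2 and SI_3_3 for shHNRNPC, and values are given in this order. HNRNPC, the targeted gene, had 13507 to 15908 counts per shcontrol library and 1010 to 1164 per shHNRNPC library. This left 7.30% of its shcontrol level. Of 14 hepatocellular markers 10 were in the table and 3 passed the filter. The keratins KRT8 and KRT18 were abundant, at 1006 ± 7.07 and 364 ± 7.16 CPM in shcontrol (SD, n = 3). CPM are counts scaled to library size with the TMM adjustment given under processing. Albumin (ALB) and apolipoprotein A1 (APOA1) were at 0 CPM in shcontrol, and alpha-fetoprotein (AFP) averaged 0.139 CPM. Apart from the keratins, the highest of the markers in the table was SERPINA1, at 0.421 CPM in shcontrol. Markers missing from the table have no value here. KRT8 and KRT18 were called higher, the latter not after the correction for transcript GC content and length explained below (adjusted p = 0.229). Among leukocyte, fibroblast and endothelial markers CD3E, DCN and PECAM1 were each under 0.1 CPM in both groups. COL1A1 was at 15.6 and 15.8 CPM in shcontrol and shHNRNPC, PDGFRB at 4.25 and 4.12 CPM and ITGAM at 1.72 and 1.66 CPM. CD68 (43.2 to 64.9 CPM), EGFL7 (53.3 to 66.4 CPM) and ACTA2 (417 to 337 CPM) were the abundant ones. Each of these lists had 3 tested genes. Called higher were 1 leukocyte marker (CD68) and 2 endothelial markers (EGFL7, ENG), and 1 fibroblast marker (ACTA2) was lower. Over all tested genes 61.1% were called in either direction. The summed ranges over the libraries were 42.6 to 49.3 CPM in shcontrol and 65.5 to 70.3 CPM in shHNRNPC for leukocyte markers. They were 58.1 to 60.4 and 73.6 to 77.1 CPM for endothelial markers, and 435 to 442 and 356 to 360 CPM for fibroblast markers. Each sum was mostly 1 gene, CD68, EGFL7 and ACTA2 in turn. The part of these markers in the results was not tested.

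Upstream sequence was matched in RefSeq for 8 of the 10 genes, all but SLC7A11 and GSS, and 3 of the 8 held the core of the antioxidant response element, the site that NRF2 binds with small MAF proteins. The core was searched as TGACNNNGC on both strands in the 250 bases before the start site. It occurs in 11% of 27305 promoters of that length. The last 100 bases before the start are shown for these 3 (GRCh38.p14, 5′ to 3′ on the gene's strand), with the match in capitals, because SLC3A2, GCLM and AIFM2 stand at 3 different steps of the pathway.
SLC3A2: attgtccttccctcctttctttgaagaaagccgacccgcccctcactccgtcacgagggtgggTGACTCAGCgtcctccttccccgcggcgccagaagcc
GCLM: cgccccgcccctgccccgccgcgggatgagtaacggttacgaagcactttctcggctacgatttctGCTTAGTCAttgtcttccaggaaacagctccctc
AIFM2: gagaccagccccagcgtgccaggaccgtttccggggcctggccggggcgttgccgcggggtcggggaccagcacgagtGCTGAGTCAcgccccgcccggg
The SLC3A2 stretch lies at chr11:62881599-62881698 on the plus strand, the GCLM stretch at chr1:93909431-93909530 and the AIFM2 stretch at chr10:70132826-70132925, both on the minus strand. The SLC3A2 and AIFM2 stretches lie inside the spans deposited for these genes, 62856111 to 62888860 and 70112270 to 70132934. The start sites used for them are therefore not the outermost ones. The matches begin 37, 34 and 22 bases before the start. In SLC3A2 and AIFM2 the match also contains TGAGTCA read on the other strand, the AP-1 site, which 4.16% of promoters hold. The amino acid response element core TGATGNAA, bound by ATF4 and its partners, is in 3.19% of promoters and in none of the 8 windows. A match is a description of letters, not of binding.

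The cystine transporter's light chain and heavy chain moved in opposite directions. SLC7A11 (chromosome 4, 138164097 to 138242349, minus strand in the deposited table) had 360, 359 and 372 counts in shcontrol and 143, 164 and 186 in shHNRNPC. With the TMM scaling, its level was 21.2, 22.7 and 20.02 CPM in shcontrol and 8.70, 9.36 and 10.5 CPM in shHNRNPC. Every shHNRNPC library lay below every shcontrol library. The level was 44.9% of shcontrol, or -1.16 on the log2 scale (SE 0.093), and the authors' deposited table gives -1.15. Among all tested genes 1.58% were called at least 2-fold lower as counted. SLC7A11 was chosen for its fall, so this share does not measure how unusual that fall is. SLC7A11 has a long, AT-rich transcript: its longest annotated coding transcript has 9645 bases and 35.4% GC, against medians of 3497 bases and 48.4% over tested genes. Tested genes of such length and GC content had a fitted log2 shift of -0.56, and after correction for it the SLC7A11 value was -0.60. The part of transcript composition in the fall was not tested beyond this. The antisense gene SLC7A11-AS1 shares 865 exonic bases with SLC7A11, 8.97% of its exonic length. Whether counting used the strand is not given in the sources used here, so reads there may belong to either gene.

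SLC3A2 (chromosome 11, 62856111 to 62888860, plus strand), the heavy chain shared by several amino acid transporters, was higher in shHNRNPC. It measured 575, 577 and 577 CPM in shcontrol and 673, 700 and 687 CPM in shHNRNPC. The groups did not overlap, and the 3 shcontrol libraries lay within 3 CPM of each other. The rise was 1.19-fold (log2 fold change 0.25, SE 0.021, adjusted p = 3.19e-14 by edgeR's quasi-likelihood test, used for every adjusted p here), and the value was 0.14 after the correction. Per kilobase of the longest coding transcript the heavy chain was 118 ± 7.47 times as abundant as SLC7A11 in shcontrol and 315 ± 27.6 times in shHNRNPC (SD, n = 3). This ratio contains the fall for which SLC7A11 was chosen and is a description only. From the fitted values it changed 2.65-fold as counted and 1.67-fold after the correction. Its size depends on the length used. With the union of annotated exons as length, shcontrol levels were 111 CPM per kilobase for SLC3A2 and 2.21 for SLC7A11.

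**Figure D1:**
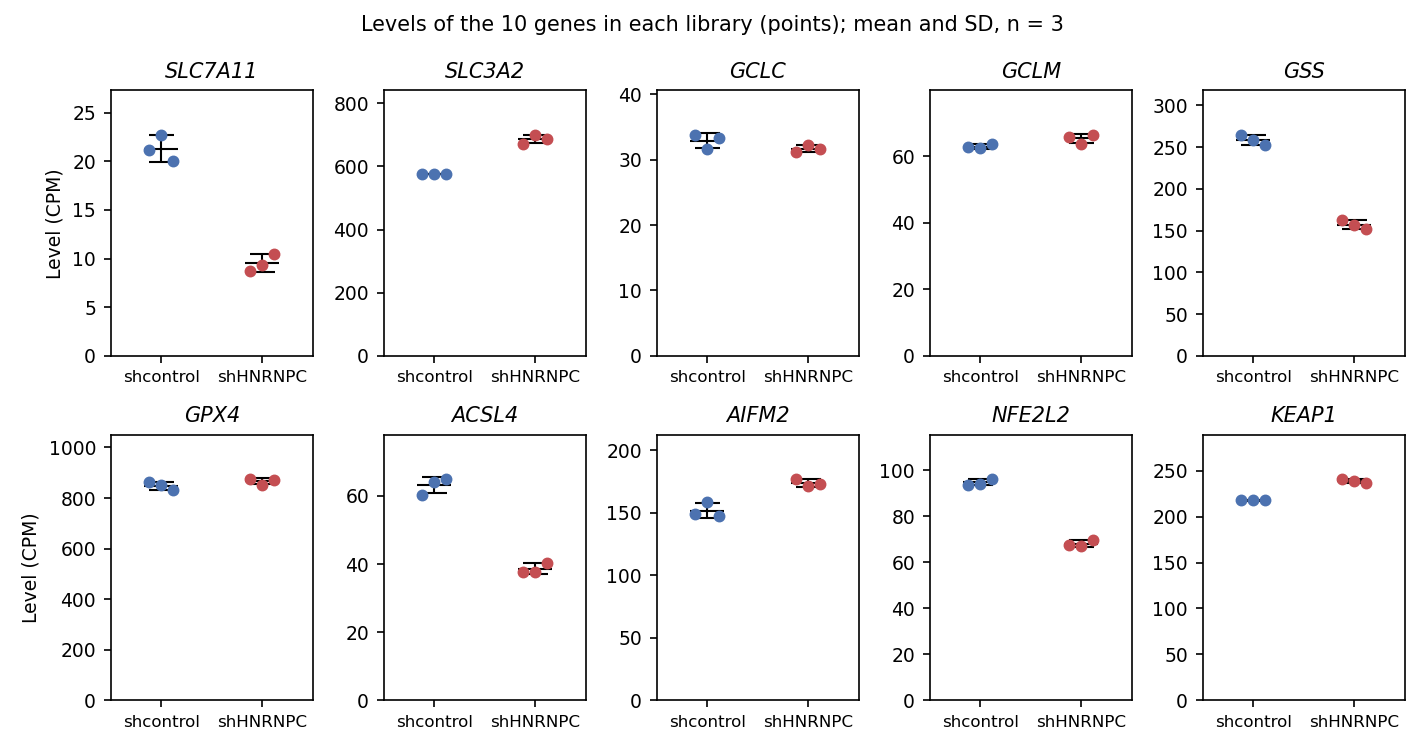
Level of each of the 10 genes in CPM (linear axis from 0) in the 3 shcontrol and 3 shHNRNPC libraries; points are libraries, and bars are the mean and SD. SLC7A11, GSS, ACSL4 and NFE2L2 sit lower in every shHNRNPC library, SLC3A2, GCLM, AIFM2 and KEAP1 sit higher, and GCLC and GPX4 overlap.

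In glutathione synthesis the last enzyme fell and the first did not pass the test. GCLC (chromosome 6, 53497341 to 53545129, minus strand), the catalytic subunit that performs the rate-limiting step, measured 33.8, 31.6 and 33.3 CPM in shcontrol and 31.2, 32.2 and 31.7 CPM in shHNRNPC. The groups overlapped, and the log2 fold change was -0.054 (SE 0.062, adjusted p = 0.461). GCLM (chromosome 1, 93885205 to 93909410, minus strand), which raises the ligase's activity, measured 62.7, 62.5 and 63.7 CPM in shcontrol and 65.9, 63.8 and 66.5 CPM in shHNRNPC. Its groups were narrowly apart, with the nearest libraries at 63.7 and 63.8 CPM. The log2 fold change was 0.055 (SE 0.045, adjusted p = 0.291). With the correction for GC content and length GCLM was called higher, at 0.47 (adjusted p = 1.76e-12). Its longest coding transcript has 4857 bases and 37.3% GC.

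GSS (chromosome 20, 34928433 to 34955817, minus strand), which adds glycine to complete glutathione, measured 265, 258 and 253 CPM in shcontrol and 163, 157 and 152 CPM in shHNRNPC. All shHNRNPC libraries were below all shcontrol libraries by a gap many times the spread within a group. GSS fell 1.64-fold (log2 fold change -0.72, SE 0.030, adjusted p = 5.05e-25), and the corrected value was -0.82. Unlike SLC7A11, its transcript is not AT-rich (2702 bases, 54.5% GC). Per kilobase, GSS was 11.1 ± 0.409 times as abundant as GCLC in shcontrol and 7.01 ± 0.342 times in shHNRNPC, with no overlap. This and the other ratios were chosen after the values were seen and are given without a test. Their sizes hold for the longest coding transcript only. With the union of annotated exons as length, shcontrol levels were 11.6 CPM per kilobase for GCLM and 3.80 for GCLC. The ratio of GCLM to GCLC was 1.504 ± 0.0487 in shcontrol and 1.62 ± 0.0576 in shHNRNPC, and the nearest libraries of the groups, at 1.553 and 1.555, were almost equal. That ratio changed 1.08-fold as counted and 1.33-fold after the correction.

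The genes that act on membrane lipids did not move as one. GPX4 (chromosome 19, 1104008 to 1106779, plus strand) was the most abundant of the 10. It measured 863, 852 and 832 CPM in shcontrol and 875, 853 and 870 CPM in shHNRNPC. The groups overlapped, and the log2 fold change was 0.029 (SE 0.020, adjusted p = 0.223). The correction turned it to -0.13, a call of lower (adjusted p = 2.79e-07). With library size alone as scaling the value was -0.011. GPX4 has a short, GC-rich transcript of 1002 bases and 65.2% GC.

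ACSL4 (chromosome X, 109641337 to 109733392, minus strand), which activates arachidonic and adrenic acid for membrane phospholipids, measured 60.4, 64.1 and 65.0 CPM in shcontrol and 37.7, 37.6 and 40.5 CPM in shHNRNPC. No libraries overlapped. ACSL4 fell 1.64-fold (log2 fold change -0.71, SE 0.052, adjusted p = 3.30e-16). Its transcript, at 5333 bases and 37.4% GC, resembles that of GCLM, and the corrected value was -0.28 (adjusted p = 1.25e-05). AIFM2 (FSP1; chromosome 10, 70112270 to 70132934, minus strand) reduces ubiquinone at the membrane and acts in parallel to GPX4. It measured 149, 158 and 147 CPM in shcontrol and 177, 171 and 173 CPM in shHNRNPC, a 1.148-fold rise (log2 fold change 0.20, SE 0.032, adjusted p = 6.12e-07) with no overlap. Corrected, the AIFM2 value was 0.11 (adjusted p = 0.00451). Per kilobase, AIFM2 was 3.94 ± 0.19 times as abundant as ACSL4 in shcontrol and 7.41 ± 0.341 times in shHNRNPC. GPX4 was 71.6 ± 4.02 times as abundant as ACSL4 in shcontrol and 120 ± 4.62 times in shHNRNPC. Both ratios were higher in every shHNRNPC library. From the fitted values, the AIFM2 to ACSL4 ratio changed 1.88-fold as counted and 1.31-fold after the correction, and the GPX4 to ACSL4 ratio 1.67-fold and 1.11-fold.

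**Figure D2:**
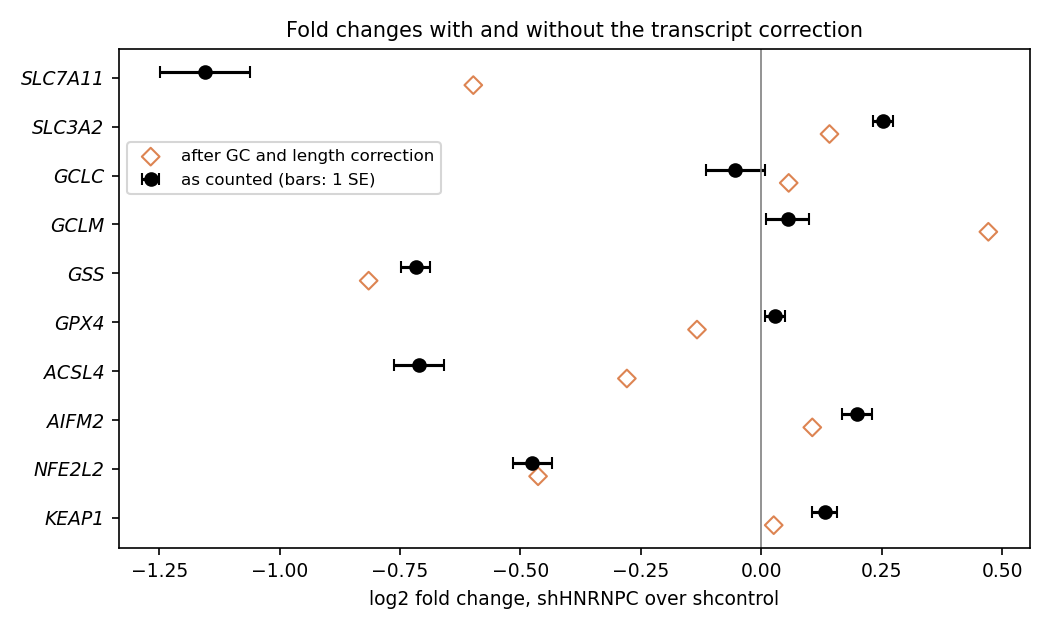
Log2 fold change of each gene, shHNRNPC over shcontrol (horizontal axis), as counted (black points, bars of 1 SE) and after subtracting the shift fitted for transcripts of the same GC content and length (open diamonds). SLC7A11 moves from -1.16 to -0.60 and GCLM from 0.055 to 0.47, while GSS and NFE2L2 stay between -0.82 and -0.46 by both.

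The transcription factor fell and its inhibitor rose slightly. NFE2L2 (chromosome 2, 177230308 to 177263572, minus strand) measured 93.8, 94.2 and 96.3 CPM in shcontrol and 67.4, 67.3 and 69.9 CPM in shHNRNPC. The groups were far apart relative to their spread, and NFE2L2 fell 1.39-fold (log2 fold change -0.48, SE 0.041, adjusted p = 5.66e-14). Its corrected value was -0.46. KEAP1 (chromosome 19, 10486120 to 10503741, minus strand) measured 217.7, 217.6 and 218.5 CPM in shcontrol and 241, 239 and 237 CPM in shHNRNPC, a 1.10-fold rise (log2 fold change 0.13, SE 0.027, adjusted p = 3.97e-05). The KEAP1 call was lost with the correction, at 0.026 (adjusted p = 0.433). KEAP1 was 2.22 ± 0.0256 times as abundant as NFE2L2 per kilobase in shcontrol and 3.38 ± 0.0981 times in shHNRNPC, without overlap. From the fitted values, that ratio changed 1.52-fold as counted and 1.40-fold after the correction. A GENCODE gene on the same strand, AC019080.1, shares 17.6% of the exonic bases of NFE2L2, and its reads may be counted with it.

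**Figure D3:**
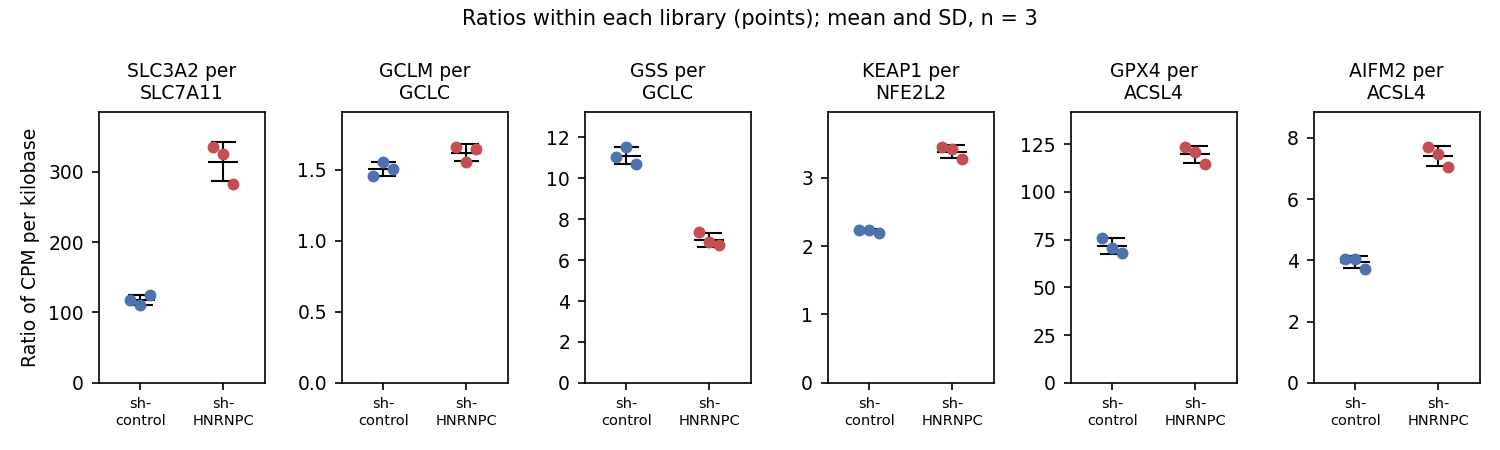
Ratio of 2 genes' levels (CPM per kilobase of the longest coding transcript, linear axes from 0) within each of the 3 shcontrol and 3 shHNRNPC libraries; points are libraries, bars are the mean and SD. The ratio of SLC3A2 to SLC7A11 goes from 118 to 315, that of KEAP1 to NFE2L2 from 2.22 to 3.38 and that of GCLM to GCLC from 1.504 to 1.621, all as counted and before the correction for transcript GC content and length.

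Counted together, 3 of the 9 genes listed for their roles were higher (SLC3A2, AIFM2, KEAP1), 3 were lower (GSS, ACSL4, NFE2L2) and 3 did not pass. Over all tested genes 29.8% were called higher and 31.3% lower, 61.1% in all, so 6 of 9 is near the share over all genes. Of the 9 genes, 7 had groups that did not overlap, as did 64% of tested genes. The median log2 fold change of the 9 was 0.029, and that of all tested genes was -0.0041. As counted, the falls of GSS and ACSL4 exceeded 1.5-fold, a size reached in that direction by 9.12% of tested genes, while 4.9% rose that much. After the correction the log2 fold change was -0.82 for GSS and -0.28 for ACSL4, so ACSL4 no longer reached that size.

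Ordered by level per kilobase in shcontrol, the genes ran from GPX4 (848 ± 15.8 CPM per kilobase) through SLC3A2 (259 ± 0.589), GSS (95.7 ± 2.24), KEAP1 (73.8 ± 0.157), AIFM2 (46.7 ± 1.82) and NFE2L2 (33.2 ± 0.455) to GCLM (12.96 ± 0.131), ACSL4 (11.9 ± 0.453), GCLC (8.62 ± 0.304) and SLC7A11 (2.21 ± 0.141). No neighbours in this order overlapped between libraries. In shHNRNPC, GSS (58.2 ± 2.17) came after KEAP1 (80.8 ± 0.721), and ACSL4 (7.24 ± 0.302) came after GCLC (8.31 ± 0.142). SLC7A11 was last in both groups, at 0.988 ± 0.0957 CPM per kilobase in shHNRNPC. With the union of annotated exons as length, KEAP1 (57.9) already lay above GSS (41.9) in shcontrol.

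The 5 genes whose log2 CPM profile over the 6 libraries was most like that of SLC7A11, of 9698 with a mean of at least 5 CPM, were HDAC9, ATAD3B, C12orf4, ALPP and CREB3L2. Their root mean square difference from SLC7A11 was 0.063 to 0.088 log2 units, with Pearson's r of 0.991 to 0.996 over 6 libraries that fall into 2 groups. HDAC9, a histone deacetylase, measured 11.8 ± 0.735 CPM in shcontrol and 5.47 ± 0.503 CPM in shHNRNPC. The 5 were chosen on values as counted, and after the correction they no longer lay close together: the log2 fold change was -0.68 for HDAC9, -0.75 for C12orf4, -1.11 for CREB3L2, -1.19 for ATAD3B and -1.34 for ALPP, against -0.60 for SLC7A11. CREB3L2, a membrane-bound transcription factor of the secretory pathway, measured 75.2 ± 1.46 and 32.1 ± 0.99 CPM. ATAD3B and ALPP have close paralogs, so their counts are uncertain.

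Around the 10 genes, 11 lists of related genes, with the 10 left out, were read from the same fit. Some genes are shared between lists, among them TXN, TXNRD1, PRDX1, GSR, SLC1A5, SLC7A1 and SLC7A5. The counts of different lists are therefore not independent. Their counts stand beside 29.8% of all tested genes called higher, 31.3% lower and 61.1% in either direction. Of 23 genes of glutathione supply, recycling and breakdown, 11 rose, 7 fell and 5 did not pass (78.3% called, median 0.073). The mitochondrial carrier SLC25A40 fell 3.20-fold (12.2 ± 2.04 to 3.80 ± 0.355 CPM, adjusted p = 8.87e-15). The named rises were smaller: the glutamine importer SLC1A5 rose 1.24-fold (258 ± 4.27 to 321 ± 8.83 CPM) and the glutaredoxin GLRX rose 1.245-fold (19.97 ± 0.719 to 24.9 ± 1.21 CPM). The SLC1A5 log2 fold change of 0.31 was 0.21 after the correction. CHAC1, which degrades glutathione and was named after its values were seen, was scarce but rose, from 2.42 to 6.32 CPM (log2 fold change 1.38).

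Of 14 tested glutathione transferases and peroxidases 9 rose, 2 fell and 3 did not pass (78.6% called, median 0.37), and 7 were higher and 2 lower after the correction. GSTZ1 rose 1.59-fold to 17.4 ± 1.14 CPM and GSTO1 rose 1.47-fold to 21.1 ± 1.34 CPM. GSTCD fell 1.40-fold to 14.3 ± 1.46 CPM and GSTM4 fell 1.19-fold to 66.5 ± 1.48 CPM. The GSTCD log2 fold change of -0.49 was -0.21 after the correction (adjusted p = 0.0424). A further 8 genes in the table were too low to test. Of 15 thioredoxin and peroxiredoxin genes 7 rose, 4 fell and 4 did not pass (73.3% called, median 0.17). TXN, thioredoxin, rose 1.34-fold (316 ± 2.14 to 424 ± 5.85 CPM) while TXNRD1, the cytosolic reductase that recharges it, fell 1.38-fold (953 ± 24.0 to 691 ± 15.3 CPM). TXNIP, an inhibitor of thioredoxin, rose 1.48-fold, and the reductase TXNRD3 fell 1.30-fold.

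NRF2 target genes went both ways: 15 of 28 rose, 6 fell and 7 did not pass (median 0.15, 75% called). After the correction 12 were higher and 7 lower, and with library size alone as scaling 13 and 7. FTL, the ferritin light chain, fell 1.69-fold (2854 ± 31.1 to 1693 ± 16.3 CPM, adjusted p = 9.56e-36), and TXNRD1 is also in this list. HMOX1, which degrades haem, rose 1.46-fold (66.4 ± 2.26 to 96.8 ± 3.24 CPM) and the exporter ABCC3 rose 1.67-fold (8.60 ± 0.518 to 14.4 ± 1.11 CPM). The summed level of the list was 9421 to 9668 CPM in shcontrol and 8581 to 8731 CPM in shHNRNPC, lower although more members rose, and FTL is its most abundant gene. Of 18 dimer partners, competitors and degraders of NRF2, 5 rose, 10 fell and 3 did not pass (83.3% called, median -0.20). After the correction the numbers were 3 and 6. NFE2L1, a paralog of NFE2L2 that controls proteasome genes, rose 1.47-fold (430 ± 4.89 to 631 ± 6.30 CPM) and the ubiquitin ligase TRIM21 rose 1.87-fold. PALB2, which binds KEAP1, fell 1.42-fold (log2 fold change -0.51, and -0.34 corrected), and the kinase GSK3B fell 1.37-fold, a call lost with the correction (log2 fold change -0.12, adjusted p = 0.0535).

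ATF4, another transcription factor known to act on SLC7A11, stood with its targets in a list of which 17 of 26 rose, 5 fell and 4 did not pass (median 0.23, 84.6% called). SLC6A9, a glycine transporter, rose 1.85-fold (9.51 ± 0.694 to 17.5 ± 1.66 CPM), and DDIT3 (CHOP) rose 1.78-fold (8.10 ± 0.904 to 14.3 ± 0.43 CPM). ATF4 itself, named after its values were seen, rose from 257 to 388 CPM. The arginine transporter SLC7A1 fell 1.74-fold (248 ± 3.82 to 143 ± 1.05 CPM) and CEBPG, a dimer partner of ATF4, fell 1.54-fold (28.3 ± 0.944 to 18.34 ± 0.871 CPM). Whether ATF4 had a part in the level of SLC7A11 was not tested. Of 5 tested SLC7 transporters 2 rose and 3 fell. SLC7A5, the abundant leucine transporter that pairs with SLC3A2, rose 1.17-fold (1140 ± 12.4 to 1334 ± 21.9 CPM), and SLC7A6, another partner, fell 1.27-fold to 48.0 ± 2.49 CPM. After the correction the log2 fold changes of SLC7A5 and SLC7A6, 0.23 and -0.35 as counted, were 0.13 and -0.22. SLC7A8, the other riser, was named after its values were seen. It was scarce, at 0.937 CPM in shcontrol and 1.63 CPM in shHNRNPC (adjusted p = 0.0298), and its groups overlapped. The count of risers among these transporters was 1 without NC_3, without SI_3 or without SI_3_2.

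**Figure D4:**
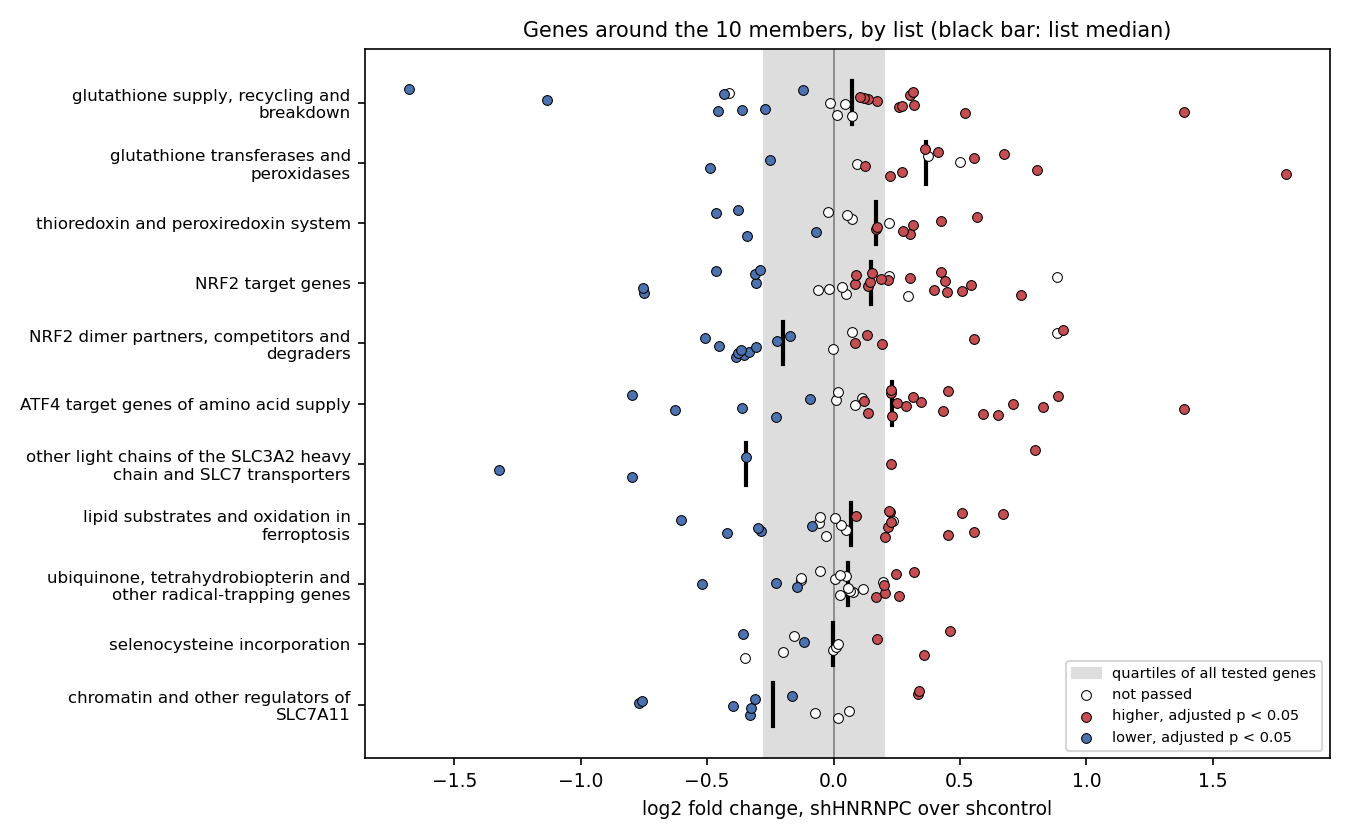
Log2 fold change, shHNRNPC over shcontrol, of each tested gene in 11 lists around the 10 genes (rows); red points were called higher, blue points lower and open points did not pass, black bars are list medians, and the grey band spans the quartiles of all tested genes (-0.28 to 0.20). List medians run from -0.35 for the SLC7 transporters to 0.37 for glutathione transferases and peroxidases.

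Among 22 genes of lipid substrates and oxidation 10 rose, 5 fell and 7 did not pass (68.2% called, median 0.069). SAT1, a polyamine acetyltransferase, rose 1.59-fold (16.2 ± 0.692 to 25.9 ± 0.906 CPM), and the lipoxygenase ALOX12 rose 1.47-fold (10.8 ± 0.44 to 15.9 ± 1.31 CPM). MBOAT2, which places monounsaturated chains in phospholipids, fell 1.52-fold (24.97 ± 1.68 to 16.4 ± 2.02 CPM), and AGPS, an enzyme of ether lipid synthesis, fell 1.34-fold (101 ± 4.59 to 75.1 ± 4.23 CPM). Neither fall kept its call with the correction: MBOAT2 was at -0.16 (adjusted p = 0.093) and AGPS turned to 0.071 (adjusted p = 0.162), and 3 genes of the list were then lower. Of 21 ubiquinone, tetrahydrobiopterin and other radical-trapping genes 6 rose, 3 fell and 12 did not pass, so 42.9% were called against 61.1% of all tested genes. STARD7, which carries phosphatidylcholine and ubiquinone, rose 1.247-fold (240 ± 2.15 to 299 ± 2.96 CPM), and COQ3 of ubiquinone synthesis rose 1.195-fold. DHODH, which reduces ubiquinone in mitochondria, fell 1.17-fold (43.6 ± 1.51 to 37.3 ± 1.84 CPM). With the correction 6 were lower.

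Of 11 genes listed under selenocysteine incorporation, a process on which GPX4 depends, 3 rose, 2 fell and 6 did not pass (45.5% called, median -0.0034). TRNAU1AP rose 1.38-fold (55.2 ± 3.20 to 75.9 ± 1.16 CPM) and LRP8, a receptor for selenoprotein P, rose 1.28-fold. TRIT1, which modifies the selenocysteine tRNA, fell 1.28-fold, and SEPHS1 fell 1.09-fold. The SEPHS1 call was lost without NC_3_3 (adjusted p = 0.0712) and without SI_3_3 (adjusted p = 0.186), which leaves 1 lower. Of 12 chromatin and other regulators of SLC7A11, 2 rose, 7 fell and 3 did not pass (75% called, median -0.24). KDM4A, a histone demethylase, fell 1.70-fold (38.2 ± 2.60 to 22.4 ± 1.41 CPM), and MDM2, a ubiquitin ligase, fell 1.69-fold (27.8 ± 1.10 to 16.4 ± 0.593 CPM). The MDM2 log2 fold change of -0.76 was -0.34 after the correction.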

How the data were processed

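RNA from 6 MHCC97H libraries, 3 per group, was extracted with Trizol and prepared with a NEBNext Ultra RNA kit, per the labels' protocols. STAR, HTSeq 0.6.0 and DESeq2 were used, per the submitters' processing notes. The build, annotation and strand setting are not stated there. The deposited counts are whole, unnormalised reads per gene. The authors computed the deposited log2 fold changes and p-values. Columns named NC and SI were assigned to groups by name, and 24 other per-library columns were not used. All 15211 deposited positions overlap the like-named GENCODE 29 gene (GRCh38).

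Counts were filtered with filterByExpr, scaled by TMM and tested with glmQLFit and glmQLFTest in edgeR 4.0.16 (R 4.3.3), with Benjamini-Hochberg adjustment over 11831 genes and a threshold of 0.05. Levels are CPM with that scaling. Standard errors come from the fold change and the F statistic. Lengths and GC content are those of the longest coding transcript in GENCODE 29, found for 11813 tested genes. The correction subtracts a loess fit (span 0.3) of log2 fold change on both. Members and lists were chosen with earlier results of these data known, and the 6 ratios after the values were seen. Named from each list were the 2 largest rises and 2 largest falls among called genes averaging 5 CPM or more, or, with none, the 2 most abundant. Some genes that this rule takes are not reported here. The profile comparison added a pseudocount of 0.5 CPM. Alternatives were other scalings, filters, DESeq2 1.42.0, the correction, a block by column suffix (added after the data were seen) and leaving out each library. For levels per kilobase, the union of annotated exons was the alternative length. Chi-square per gene, where a pair of libraries held 20 or more counts, was 1.56 to 2.50 within groups and 29.4 to 33.6 between groups, so no library was counted as a copy.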

Additional observations from a re-analysis of the deposited data

How the results depend on the processing

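The 3 higher and 3 lower calls among the 9 genes listed by role were the same numbers under RLE, upper quartile and library size scaling, without a filter, with a minimum of 1 CPM, with DESeq2 and without each library. With the correction for GC content and length they were 3 and 4. GCLM was then called higher (0.47), KEAP1 lost its call (0.026), GPX4 turned to -0.13 and AGPS to 0.071, and SLC7A11 stood at -0.60. That correction also gave 3 higher and 6 lower NRF2 partners, 3 lower lipid genes and 6 lower radical-trapping genes. With DESeq2, 1 SLC7 transporter was higher and 1 selenocysteine gene lower. Leaving out 1 library gave 1 to 2 for each of these numbers. The cause of these changes was not tested. SLC7A11, with 143 to 372 counts per library, has the least depth of the 10 genes. The column names carry no replicate number of the sample titles, but NC and SI columns share suffixes. Same-suffix libraries did not deviate together (r of -0.087, 0.040 and -0.053 over genes). With the suffix as a replicate block, added after the data were seen, 3488 genes were higher and 3671 lower, and the 9 genes again gave 3 and 3.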
